A study of Homo sapiens with 6 samples.

Results

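The metallothionein genes MT1B, MT1E, MT1F and MT1X were followed across 6 Affymetrix arrays of A549, a widely used line grown from a human adenocarcinoma of the lung, after heat, X-rays or both. The members were the features whose platform gene symbol is one of these 4 names. All 4 genes were found, each with 1 feature, among 14884 named genes and 53617 deposited features, and 7 other measured metallothioneins served as context. There was 1 array in each of 6 groups. The control was untreated at 37 °C, the X-ray group received 3 Gy and was kept at 37 °C for 3 h, and the 2 heat groups spent 1 h at 41.5 °C or 44 °C before 3 h at 37 °C. In the 2 combined groups the cells were heated to 41.5 °C or 44 °C and given the 3 Gy directly afterwards. The labels do not state how long the combined groups were then kept or when the control was collected. All groups had grown for 24 h at 37 °C before treatment and shared the same line. No label ties the arrays to separate cultures. P-values therefore reflect the variation of these 6 arrays alone, part or all of which may be technical.

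Metallothioneins are small proteins rich in cysteine that bind zinc, copper and cadmium and buffer free zinc in the cell. Their genes are switched on through MTF1, a zinc finger factor that senses zinc and binds short metal response elements in their promoters. Zinc, cadmium, oxidants and glucocorticoids are classical inducers. In airway and alveolar epithelium the family is known for protection from metals and oxidants. The genes lie in a cluster on chromosome 16, which in the RefSeq annotation (assembly GRCh38.p14) holds 16 metallothionein loci, 11 of them protein coding. In that order MT1E precedes MT1B, MT1B is followed by MT1F, and MT1X closes the cluster. The protein coding neighbours are BBS2 on one side and NUP93 on the other. The coding parts of MT1 genes are nearly the same, so that array probes can take up RNA of another family member, and the value of a single gene is uncertain as that gene's own.

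Promoter sequence is shown for the 2 members with a window in the RefSeq table, MT1X and MT1B, and for MT2A, the relative that is usually the most abundant, because the metal response elements are the family's known control sites. Each window holds 300 bases, 5′ to 3′ on the plus strand of GRCh38.p14, the last 50 of them from the gene start on. Capitals mark every match, on either strand, to the metal response element cores TGCACNC or TGCGCNC. The MT1X window is chr16:56682220-56682519, that of MT1B is chr16:56651636-56651935 and that of MT2A is chr16:56608334-56608633.
MT1X: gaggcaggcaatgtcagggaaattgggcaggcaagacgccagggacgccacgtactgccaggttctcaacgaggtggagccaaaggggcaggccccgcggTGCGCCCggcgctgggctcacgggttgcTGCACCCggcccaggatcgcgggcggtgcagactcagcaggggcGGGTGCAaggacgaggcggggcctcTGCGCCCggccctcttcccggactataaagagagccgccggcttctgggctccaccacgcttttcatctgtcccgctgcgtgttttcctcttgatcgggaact
MT1B: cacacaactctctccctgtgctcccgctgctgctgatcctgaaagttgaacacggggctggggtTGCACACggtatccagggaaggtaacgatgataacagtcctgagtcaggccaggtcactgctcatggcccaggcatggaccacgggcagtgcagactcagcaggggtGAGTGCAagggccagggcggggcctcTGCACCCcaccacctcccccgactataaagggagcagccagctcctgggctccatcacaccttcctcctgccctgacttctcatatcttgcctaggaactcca
MT2A: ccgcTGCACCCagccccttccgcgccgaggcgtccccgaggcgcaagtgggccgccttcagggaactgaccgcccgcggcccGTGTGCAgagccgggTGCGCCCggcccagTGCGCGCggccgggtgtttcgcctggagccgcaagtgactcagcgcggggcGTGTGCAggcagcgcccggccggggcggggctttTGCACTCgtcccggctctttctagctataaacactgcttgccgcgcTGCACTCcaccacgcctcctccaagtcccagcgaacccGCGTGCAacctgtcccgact

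The MT1X window held 4 such cores and the MT1B window 3, against 8 in the MT2A window. In MT1X the leftmost bases of the cores stood at -150, -122, -78 and -53, counted from the gene start as 0, and in MT1B at -186, -79 and -53. MT1X and MT1B thus each had a core at -53 on the coding strand and one within 1 base at -78 or -79 on the other strand. The core at -53 read TGCGCNC in MT1X and TGCACNC in MT1B. This layout was not particular to the members: MT1H also had cores at -53 and -78 on these strands. MT2A had a core at -54 on the coding strand. The cores of MT1B all read TGCACNC, whereas MT1X had 2 of each form. Of all 35116 promoter windows of this length, 29.6% held at least 1 of these cores, 2.30% held at least 3 and 0.601% at least 4. No core overlapped another in the 3 windows printed. The heat shock element cores GAANNTTC and TTCNNGAA, each its own reverse complement, had 0 matches in the windows of MT1X, MT1B and MT2A, and 13.5% of all windows held one. A match to these letters describes the window and does not show a bound site. The MT1X and MT1B windows were identical at 182 of 288 aligned bases (58.3% when gaps are counted), and MT1X and MT2A at 168 of 277 (52.0%). MT1E and MT1F had no window in the table.

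**Figure D1:**
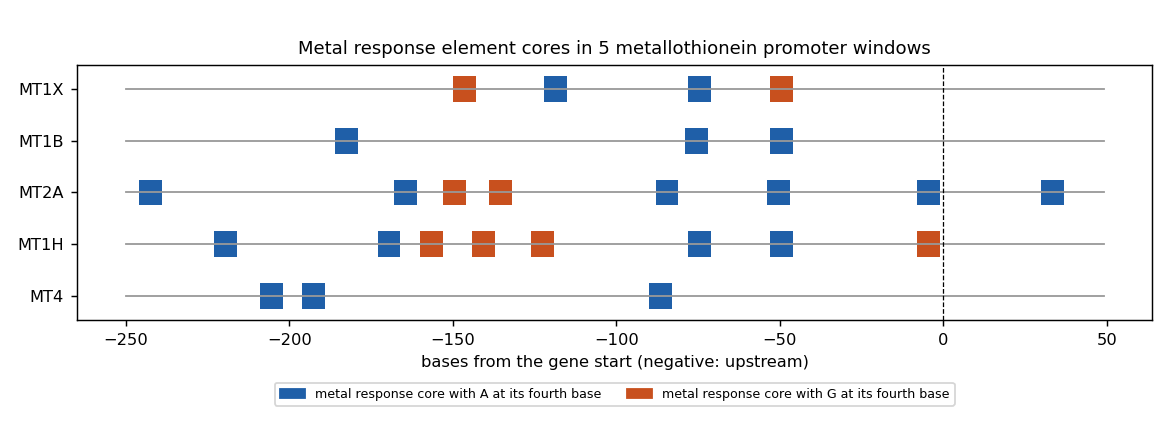
Positions of metal response element cores in the promoter windows of the 5 measured metallothioneins found in the RefSeq table, in bases from the gene start (dashed line), with the 2 forms of the core in separate colours and both strands drawn alike. MT1X, MT1B and MT1H each have a core at -53 and one at -78 or -79, and MT2A and MT1H each hold 8 cores.

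The arrays were alike in scale, with medians over all features from 4.39 to 4.46 on the log2 scale. Of the epithelial markers 5 of 6 were measured, and KRT18, a keratin of simple epithelia, lay between 11.43 and 11.59 in the 6 arrays. The lowest of them, KRT19, lay between 4.33 and 4.54, below the median gene (5.39), and the other 4 lay above it. Of 14 markers of leukocytes, endothelium and fibroblasts, 6 were measured: the endothelial ones and DCN lay between 1.72 and 4.43, also below the median gene, and LYZ between 2.78 and 3.11. CD14, a monocyte receptor that epithelial cells can also express, reached 5.77 and 5.81 in the 44 °C arrays against 4.89 and 5.16 in the 41.5 °C arrays, a call in the model (0.77 ± 0.13, adjusted p = 0.0036). Between the same temperatures EPCAM was called higher and KRT7 lower, both epithelial markers. The part of these genes in the results was not tested. In cells measured in bulk, fewer cells with a transcript and less of it per cell cannot be told apart.

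MT1X, one of the most widely expressed MT1 forms, rose after mild heat. On the log2 scale it stood at 8.03 in the control and 8.25 after X-rays alone, at 8.51 after 41.5 °C and 8.63 after 41.5 °C plus X-rays, and at 8.27 and 8.42 after 44 °C without and with X-rays. Both 41.5 °C arrays thus lay above all 4 others, a pattern found in 13.9% of all genes, and the 44 °C arrays lay between them and the 37 °C arrays. In an additive model of temperature and radiation, fitted with limma to all genes, MT1X rose at 41.5 °C by 0.43 ± 0.08 on the log2 scale (SE, n = 2 arrays per temperature), or 1.35-fold, with a 95% interval from 0.256 to 0.602 and adjusted p = 0.0175. It was the 1 of 4 members called in this comparison, where 3.29% of all genes were called in either direction and 2.18% upward.

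The MT1X call needed each of the 4 arrays it compares. Without the control the adjusted p was 0.221, without the X-ray array 0.219, without the 41.5 °C array 0.0725 and without the combined 41.5 °C array 0.0528, although the difference stayed between 0.38 and 0.47. It was also lost with moderation that ignored the intensity trend (adjusted p = 0.184) and in a fit of all deposited features (adjusted p = 0.166), and the 6 alternatives other than leaving out an array ranged from 0.0121 to 0.184.

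**Figure D2:**
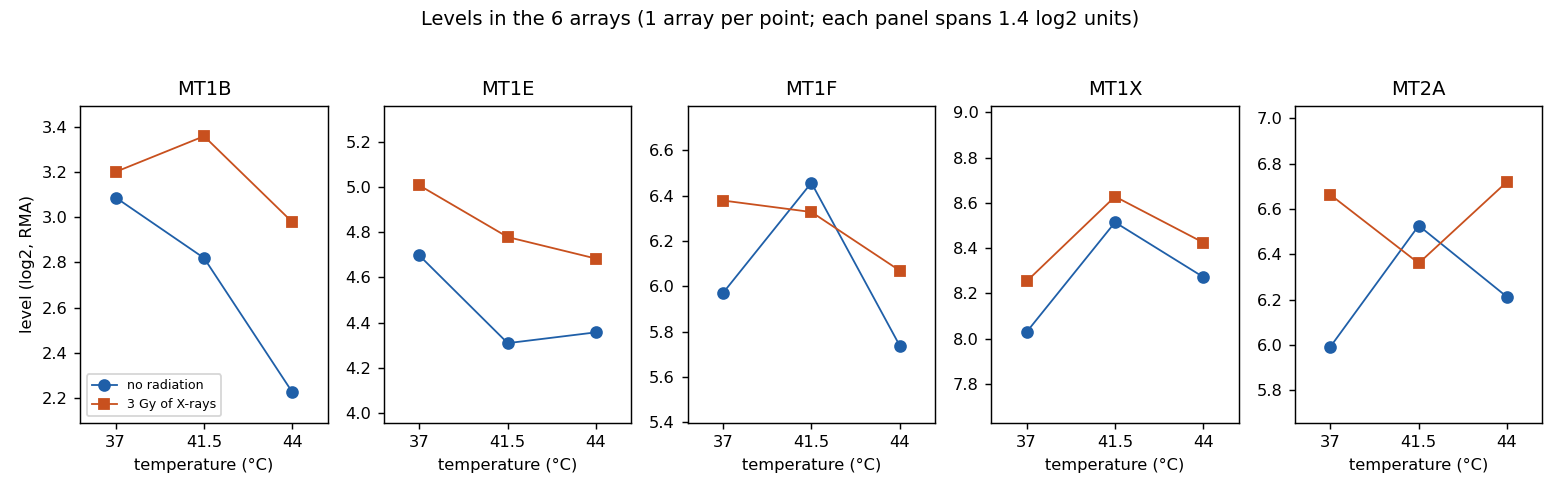
Log2 levels of the 4 members and MT2A by temperature in °C, with circles for the arrays without radiation and squares for those given 3 Gy of X-rays; each point is 1 array and every panel spans 1.4 log2 units around its own centre, so that slopes but not heights can be compared between panels. MT1X is highest in both 41.5 °C arrays (8.51 and 8.63), and the irradiated points of MT1B, MT1E and MT1X lie above the unirradiated ones at each temperature.

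MT1F also stood high at 41.5 °C, but its difference from 37 °C did not pass the test. The control had a log2 level of 5.97 and the X-ray array 6.38, 41.5 °C alone 6.46 and with X-rays 6.33, and 44 °C alone 5.74 and with X-rays 6.07. Of all genes 65% had a lower mean. These levels overlapped those of MT4 (6.13 to 6.54), a form known from stratified epithelium, and whether the MT1F feature lay above background was not tested. The 37 °C arrays overlapped the 41.5 °C arrays, while both 44 °C arrays lay below both 41.5 °C arrays. MT1F fell between 41.5 °C and 44 °C by 0.49 ± 0.14 on the log2 scale, 1.4-fold, with adjusted p = 0.0462. It was the 1 of 4 members called there, beside 12.1% of all genes called and 7.23% called downward. Against 37 °C its difference was 0.22 ± 0.14 at 41.5 °C (adjusted p = 0.489) and -0.27 ± 0.14 at 44 °C (adjusted p = 0.311). The latter was -0.42 without the control and -0.12 without the X-ray array.

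The MT1F call lay close to the threshold and was kept when 1 of the 6 arrays was left out, the combined 41.5 °C array (-0.74, adjusted p = 0.0104). Without the 41.5 °C array the difference was -0.24 (adjusted p = 0.418), without the 44 °C array adjusted p = 0.225, without the combined 44 °C array 0.0595, without the control 0.0804 and without the X-ray array 0.0821. The other alternatives ranged from 0.0271 to 0.172, and the highest were moderation without the trend (0.133) and the fit of all features. On simulated data this model made more false calls than its threshold allows for. Whether that excess carries over to these arrays was not tested, and the adjusted p-values of MT1F and MT1X may be too small.

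MT1B was dim on these arrays, and 9.17% of all genes had a lower mean. Its levels lay about those of LYZ (2.78 to 3.11) and the endothelial receptor KDR (2.92 to 3.18), markers of other cell types, and no value here shows the MT1B feature to be above background, so that each of its differences and folds may be one of background. Log2 levels were 3.09 in the untreated and 3.20 in the X-ray array, 2.82 and 3.36 at 41.5 °C without and with X-rays, and 2.23 and 2.98 at 44 °C. Both 44 °C arrays lay below both 37 °C arrays, and the 44 °C array without X-rays stood apart, 0.59 below the next. The difference at 44 °C was -0.54 ± 0.20 on the log2 scale and missed the threshold (adjusted p = 0.148), as did that between 44 °C and 41.5 °C (-0.49 ± 0.20, adjusted p = 0.154). At 41.5 °C against 37 °C the value was -0.05 ± 0.20 (adjusted p = 0.936), and it was positive (0.21) without the control. Leaving out 1 array moved the 44 °C difference between -0.81 (without the X-ray array) and -0.28 (without the control, adjusted p = 0.694), and that from 41.5 °C between -0.70 (without the combined 44 °C array) and -0.27 (without the 44 °C array).

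MT1E was lower in the heated arrays than in the 37 °C array with the same radiation, at both temperatures. Untreated cells had a log2 level of 4.70 and X-rayed cells 5.01. The levels were 4.31 and 4.78 at 41.5 °C without and with X-rays, and 4.36 and 4.68 at 44 °C. Of all genes 34.8% had a lower mean than MT1E, which lay below the median gene (5.39). Its levels in the heated arrays without X-rays lay within the range of the endothelial marker VWF (4.17 to 4.43). No value here shows the MT1E feature to be above background, so that its heat and X-ray differences may in part be of background. The 44 °C arrays did not overlap the 37 °C arrays, by a gap of 0.0139, while the 41.5 °C arrays did. The differences were -0.31 ± 0.14 at 41.5 °C (adjusted p = 0.314) and -0.33 ± 0.14 at 44 °C (adjusted p = 0.227), and neither passed. Between 44 °C and 41.5 °C the value was -0.02 ± 0.14, with an interval from -0.344 to 0.297, and its sign turned without either combined array.

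At 44 °C against 37 °C, 0 of the 4 members were called by limma, beside 6.11% of all genes; at an unadjusted p under 0.05 there were 3 members and 3054 genes (20.5%). MT1X was higher at 44 °C by 0.21 ± 0.08 (adjusted p = 0.161) and lower than at 41.5 °C by a difference of -0.22 ± 0.08 (adjusted p = 0.0975), neither of which passed. The median difference of the 4 was -0.30 at 44 °C and 0.08 at 41.5 °C, against -0.0403 and -0.00387 over all genes. The groups at 44 °C and 37 °C did not overlap for 3 members, MT1B and MT1E lower and MT1X higher. Of all genes 31.2% lay lower and 19.9% higher in this way. The gaps between the groups were 0.109 for MT1B, 0.0139 for MT1E and 0.0184 for MT1X. Each was below the model's SD of a difference between 2 single arrays (0.28, 0.204 and 0.11). At 41.5 °C against 37 °C, MT1X alone of the 4 had groups that did not overlap, upward, beside 22.8% of genes higher and 23.4% lower. Between 44 °C and 41.5 °C, MT1F and MT1X lay wholly lower and 0 members wholly higher, beside 30.4% and 23.6% of genes. The comparisons of 41.5 °C and of 44 °C with 37 °C share their 37 °C arrays.

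Heat was also compared within each radiation state, 1 array against 1. At 1.5-fold and above there was 1 member, MT1B, lower by 1.82-fold at 44 °C without X-rays (a log2 difference of -0.86, at levels not shown to be above background), where 7.21% of all genes were past that size and 3.04% were lower by it. With X-rays the same heat gave MT1B a difference of -0.22. In the other pairs there were 0 members past 1.5-fold, beside 4.13% of genes at 41.5 °C without X-rays, 5.62% at 41.5 °C with X-rays and 6.46% at 44 °C with X-rays. MT1X was higher in all 4 pairs, by 0.48 and 0.37 at 41.5 °C without and with X-rays and by 0.24 and 0.17 at 44 °C. MT1E was negative in all 4 pairs, from -0.39 to -0.23. MT1F had 0.49 at 41.5 °C without X-rays and -0.05 with them, and -0.23 and -0.31 at 44 °C.

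**Figure D3:**
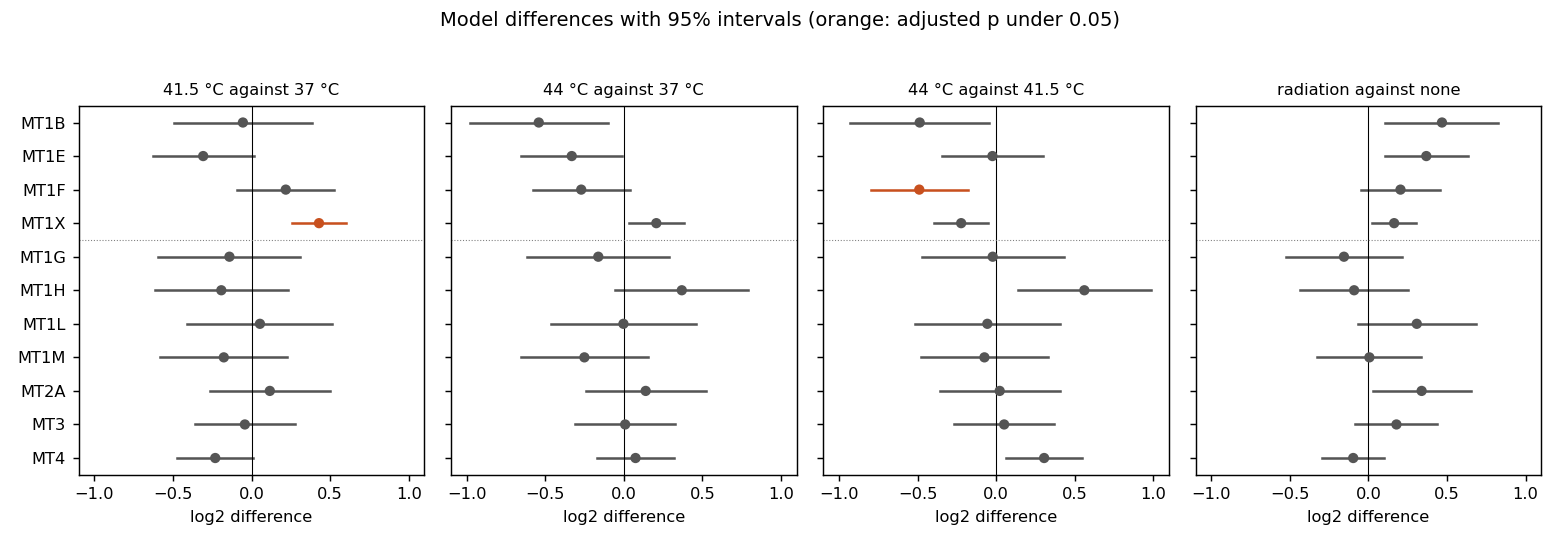
Log2 differences from the additive model with 95% intervals for the 4 members (above the dotted line) and 7 other metallothioneins, in 4 comparisons, with calls at an adjusted p under 0.05 in orange. The calls are MT1X at 41.5 °C against 37 °C (0.43) and MT1F at 44 °C against 41.5 °C (-0.49).

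Radiation was compared at each temperature. MT1E was higher in the irradiated array by 0.31 at 37 °C, 0.47 at 41.5 °C and 0.33 at 44 °C on the log2 scale. MT1X was higher by 0.22, 0.11 and 0.15 at the same temperatures. MT1B was higher by 0.11, 0.54 and 0.75. These 3 members were higher in every pair, as were 12.3% of all genes, and 0 members were lower in every pair, beside 11.4% of genes. MT1F was higher by 0.41 at 37 °C and 0.33 at 44 °C and lower by a difference of -0.13 at 41.5 °C. These differences between single arrays have no replicate check. At 1.5-fold and above there was 1 member, MT1B at 44 °C (1.68-fold, at levels not shown to be above background), where 1.83% of all genes were past that size and 0.752% were higher by it. At 37 °C and at 41.5 °C there were 0 members, beside 3.02% and 3.31% of all genes.

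Over the 3 pairs the model gave a radiation difference of 0.47 ± 0.16 for MT1B, 0.37 ± 0.12 for MT1E, 0.20 ± 0.11 for MT1F and 0.16 ± 0.06 for MT1X (SE, 3 arrays with and 3 without X-rays). None of the 4 passed in limma, with adjusted p = 0.859, 0.853, 0.997 and 0.985, and of all genes 0 were called (0%). At an unadjusted p under 0.05 there were 3 members (MT1B at 0.0159, MT1E at 0.0107 and MT1X at 0.0277) and 733 genes (4.92%), and the smallest adjusted p of any gene was 0.0562. The median of the 4 was 0.29, against -1.3e-04 over all genes. For the 7 other measured metallothioneins it was 0.0057, with 4 positive and 3 negative values. The 4 members include MT1B and MT1E, whose features were not shown to be above background. For all 4 members the irradiated and unirradiated arrays overlapped, while 2.71% of all genes lay wholly higher and 2.79% wholly lower. When 1 array is left out, the model's radiation difference is the mean of the pairs at the other temperatures. For MT1B, MT1E and MT1X, which were higher in every pair, the sign could therefore not turn. The difference of MT1F stayed positive, from 0.10 (without the control or the X-ray array) to 0.37 (without either 41.5 °C array). That of MT1B ran from 0.33 (without either 44 °C array) to 0.64 (without the control or the X-ray array).

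**Figure D4:**
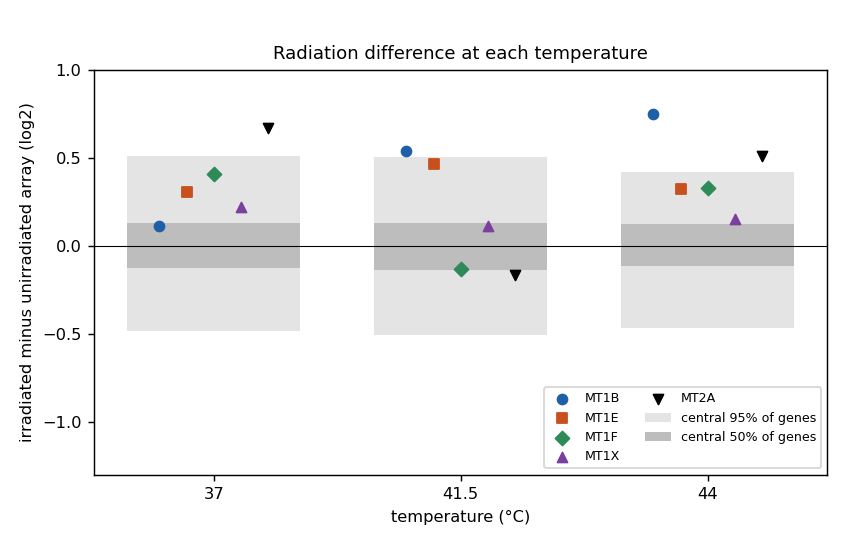
Log2 difference between the irradiated and the unirradiated array at each temperature in °C for the 4 members and MT2A, over bars that span the central 95% (light) and 50% (dark) of all genes. The values of MT1B, MT1E and MT1X lie above 0 at all 3 temperatures, whereas MT1F and MT2A lie below 0 at 41.5 °C (-0.13 and -0.17).

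The combined treatments were set against the sum of the single ones. A departure from additivity is the combined value minus heat alone, minus X-rays alone, plus the control, on the log2 scale, and it has no test here. MT1B departed by 0.42 at 41.5 °C and 0.64 at 44 °C. MT1F departed by -0.54 at 41.5 °C and -0.08 at 44 °C. MT1E (0.16 and 0.02) and MT1X (-0.11 and -0.07) stayed nearer to 0. The median size over all genes was 0.181 at 41.5 °C and 0.182 at 44 °C, and 5.85% of genes departed further than MT1B at 44 °C and 9.57% further than MT1F at 41.5 °C.

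The order of the 6 arrays differed between the members. A difference between 2 single arrays has an SD of 0.28 for MT1B, 0.204 for MT1E, 0.196 for MT1F and 0.11 for MT1X in the model. In MT1B the one step between neighbours larger than this was that above the 44 °C array. In MT1E the steps below the X-ray array (0.23) and below the combined 44 °C array (0.33) were larger. In MT1F the larger steps set the 41.5 °C and X-ray arrays above the combined 44 °C array (0.26) and the control above the 44 °C array (0.23). In MT1X they set the combined 41.5 °C array above the 41.5 °C array (0.114), the combined 44 °C array above the 44 °C array (0.15) and the X-ray array above the control (0.22).

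Across the 6 arrays the members went together in part. The Pearson r of log2 levels was 0.773 for MT1B and MT1E, 0.655 for MT1B and MT1F, and 0.544 for MT1F and MT1X. It was 0.3 for MT1E and MT1F, 0.195 for MT1B and MT1X and -0.157 for MT1E and MT1X. Between a member and another measured metallothionein, r ran from -0.946 (MT1F and MT4) to 0.557 (MT1F and MT2A). These are 6 arrays of different treatment that share their normalization, and the values are a description only.

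Of the other metallothioneins, MT2A, which buffers metals alongside the MT1 proteins in most tissues, stood at 5.99 (log2) untreated and 6.66 after X-rays, 6.53 and 6.36 at 41.5 °C without and with X-rays, and 6.21 and 6.72 at 44 °C. The control was the lowest array, and the groups by temperature overlapped. Its radiation difference was 0.67 at 37 °C, past 1.5-fold, then -0.17 at 41.5 °C and 0.51 at 44 °C, and over the 3 pairs 0.34 ± 0.14 (adjusted p = 0.997). Its departure from additivity at 41.5 °C was -0.84, and 2.57% of genes departed further. The heat differences were 0.12 ± 0.17 at 41.5 °C (adjusted p = 0.813), a value that was negative without the control or without the 41.5 °C array, and 0.14 ± 0.17 at 44 °C (adjusted p = 0.728).

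MT1G, MT1H, MT1M and the pseudogene MT1L were dim, with means that 15.4% of genes or fewer fell below. MT3, the form known from brain, had levels between 4.93 and 5.28, and MT4, known from stratified epithelium, between 6.13 and 6.54. Of these 7 genes 0 were called in any of the 4 comparisons, beside 0% to 12.1% of all genes. At 44 °C against 41.5 °C, 4 of these 7 had positive and 3 negative values, while all 4 members had negative ones. The median over all genes was also negative there (-0.0212), and the share of genes with a negative value was not counted. MT1E had -0.02 ± 0.14. Among the 7 genes the values with the lowest adjusted p were those of MT1H (0.56 ± 0.19, adjusted p = 0.0884) and MT4 (0.31 ± 0.11, adjusted p = 0.105) in that comparison. At an unadjusted p these were 0.0143 and 0.0187.

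MTF1, the metal sensor, stood at 7.52 (log2) untreated and 7.26 after X-rays, 7.64 and 7.71 at 41.5 °C, and 7.69 and 7.80 at 44 °C. All heated arrays lay above both 37 °C arrays. Of all genes 22.8% lay wholly higher at 41.5 °C and 19.9% at 44 °C, each against 37 °C. The share with both at once was not counted. The differences of 0.29 ± 0.11 at 41.5 °C (adjusted p = 0.189) and 0.36 ± 0.11 at 44 °C (adjusted p = 0.0794) did not pass, and at 44 °C the adjusted p was 0.0498 without the 41.5 °C array. The zinc transporters of the SLC30 and SLC39 families, SLC30A1 among them, were not analysed here. Of 6 measured genes of copper handling, MTF1 included, 0 were called in any of the 4 comparisons, beside 0% to 12.1% of all genes.

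Some genes of oxidant and heavy metal stress also rose at 41.5 °C. Of 6 measured, 3 were called upward, beside 2.18% of all genes, and 0 downward. Their median was 0.47 against -0.00387 over all genes. HMOX1, the haem oxygenase that cadmium and oxidants induce, stood at 8.56 (log2) untreated and 8.35 after X-rays, 8.99 and 9.15 at 41.5 °C without and with X-rays, and 8.20 and 8.42 at 44 °C. It rose at 41.5 °C by 0.62 ± 0.10 (adjusted p = 0.0122), a call lost when the X-ray array (adjusted p = 0.256) or that of 41.5 °C plus X-rays (0.0604) was left out. SRXN1, which repairs oxidised peroxiredoxins, and OSGIN1, an oxidant-induced growth inhibitor, rose 1.96-fold and 1.68-fold, and OSGIN1 lost its call without the control or the X-ray array (highest adjusted p = 0.214). At 44 °C against 41.5 °C, 4 of the 6 fell, beside 7.23% of all genes called downward. These were OSGIN1 by 1.06, SRXN1 by 0.86, HMOX1 by 0.77 and TXNRD1, a thioredoxin reductase, by 0.32. TXNRD1 lost that call without any array but the combined 41.5 °C array (highest adjusted p = 0.167). At 44 °C against 37 °C 0 of the 6 were called, beside 6.11% of all genes.

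**Figure D5:**
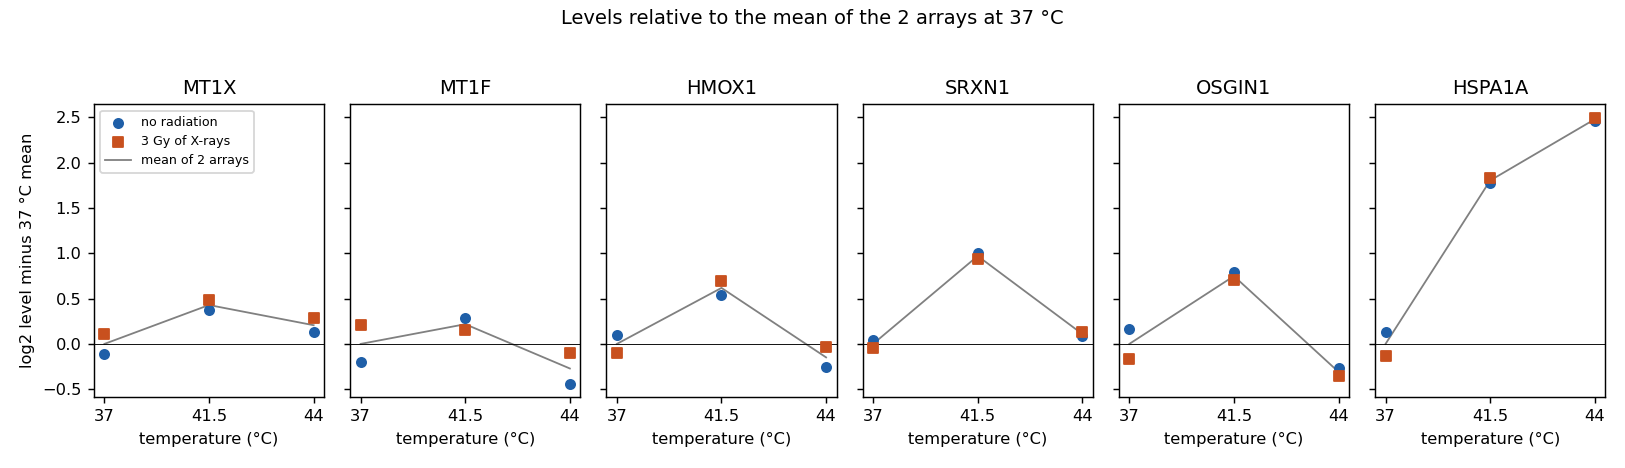
Log2 levels relative to the mean of the 2 arrays at 37 °C for MT1X, MT1F, 3 oxidant stress genes and HSPA1A, with circles for arrays without radiation, squares for 3 Gy of X-rays and a line through the mean of the 2 arrays at each temperature in °C. MT1X, HMOX1, SRXN1 and OSGIN1 are highest at 41.5 °C, and HSPA1A, an HSP70 gene, is highest at 44 °C, 2.48 above its 37 °C mean.

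Of 8 heat shock genes measured, 6 rose at 41.5 °C and 7 at 44 °C, 0 fell, and 6 were higher at 44 °C than at 41.5 °C. Of all genes 3.29%, 6.11% and 12.1% were called in these comparisons, in either direction. HSPA1A, whose sequence is nearly that of HSPA1B, rose by 1.80 ± 0.08 at 41.5 °C and by 2.48 ± 0.08 at 44 °C. The co-chaperone BAG3 rose by 1.09 and 2.34, its call at 41.5 °C being lost without the X-ray array (adjusted p = 0.063), and HSPA6, an HSP70 induced by stress alone, was 8.15-fold higher at 44 °C than at 41.5 °C.

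Of 7 measured glucocorticoid targets, 0 were called at 41.5 °C against 37 °C and 1 at 44 °C against 37 °C, upward. At 44 °C against 41.5 °C 2 were called, both upward. Of all genes 3.29%, 6.11% and 12.1% were called in these comparisons. The called genes were KLF9 and ERRFI1. Both had negative values at 41.5 °C against 37 °C, -0.53 for KLF9 (adjusted p = 0.0775) and -0.30 for ERRFI1 (adjusted p = 0.0655). At 44 °C against 37 °C ERRFI1 had 0.08 (adjusted p = 0.612). KLF9, a transcription factor induced by glucocorticoids, was 2.14-fold higher at 44 °C than at 41.5 °C (adjusted p = 8.6e-04) and higher than at 37 °C by 0.57 ± 0.14 (adjusted p = 0.0428), the latter call being lost without any 1 of the 4 arrays compared (highest adjusted p = 0.38) and under both other scalings. ERRFI1, a brake on the EGF receptor, was higher at 44 °C than at 41.5 °C by 0.39 ± 0.08, a call lost without either combined array (highest adjusted p = 0.109).

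Of 5 measured neighbours of the cluster, OGFOD1 and BBS2 fell at 44 °C against 37 °C, by 0.33 ± 0.07 and 0.40 ± 0.09 (adjusted p = 0.0272 and 0.0315), and each call was lost without any 1 of the 4 arrays compared (highest adjusted p = 0.357). OGFOD1, a ribosomal protein hydroxylase, also fell against 41.5 °C, by 0.34 ± 0.07 (adjusted p = 0.0143), a call lost without the 41.5 °C array or either 44 °C array. NUP93, a nuclear pore protein beside MT1X, had -0.30 at 44 °C (adjusted p = 0.0741). At 41.5 °C against 37 °C, where MT1X rose, 0 of the 5 were called, beside 3.29% of all genes. The share of all genes called was 6.11% at 44 °C against 37 °C and 12.1% at 44 °C against 41.5 °C. Moderation without the trend ended the 41.5 °C calls of HMOX1, SRXN1, OSGIN1 and BAG3 and the other calls of TXNRD1, KLF9 at 44 °C against 37 °C, ERRFI1, OGFOD1 and BBS2 (adjusted p from 0.0572 to 0.184), and the fit of all features ended these too, apart from SRXN1.

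The genes with the pattern most like each member were taken among those above the median level with a range of at least 0.3 over the arrays. For MT1X they were CCNT1, a cyclin of the transcription elongation kinase (r = 0.993), BYSL (0.985) and NOM1 (0.980), which serve ribosome assembly. For MT1F they were MTRF1L, a mitochondrial translation release factor (0.983), UQCC6 (0.982) and HPS1 (0.981). For MT1E they were MIR330 (0.991), the p53-induced noncoding RNA PURPL (0.968) and ASS1, which makes argininosuccinate (0.967). For MT1B they were PDZD11 (0.980), the kinetochore gene CENPW (0.970) and RANBP1 (0.964). PURPL stood at 8.10 (log2) untreated and 9.01 after X-rays, 7.46 and 8.75 at 41.5 °C, and 7.54 and 8.18 at 44 °C. Between 0.457% (MT1E) and 1.39% (MT1F) of 5027 or 5028 candidate genes had r over 0.9. These genes are the highest of many over 6 arrays, and no p is given.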

How the data were processed

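RNA from 6 samples was measured on Affymetrix arrays. Amplification and biotin labelling started from 300 ng of total RNA, per the labels' protocols. Per the submitters' processing notes, Affymetrix Expression Console 1.1 and RMA produced the deposited values, which are on the log2 scale, background corrected and equalised between arrays by the authors. A genome build is not named by the labels. Array number limits the precision.

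Exactly 1 gene symbol was given for 16098 of 53617 features, several for 0, and 37519 are unnamed here. All 16098 matched RefSeq identifiers (GRCh38.p14), and 0 symbols changed. For 779 genes with several features the one with the highest mean was used. The additive model (temperature as a factor, radiation as a term) was fitted by limma (version 3.58.1, R 4.3.3) to the 6 arrays, using an intensity trend and leaving 2 residual degrees of freedom, which hold interaction and noise together. P-values are two-sided, Benjamini-Hochberg adjusted over 14884 genes, and called under 0.05. Scripts were tested on simulated data, in which the share of false calls was above the nominal level of the threshold in each comparison. Promoter windows were aligned with Biopython 1.88.

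Members and gene lists were chosen with earlier results of these data known. The genes named are the 4 members, the other measured metallothioneins, MTF1, HMOX1, called members of each list up to the 4 largest, and the 3 genes most like each member. Markers, and NUP93 as a neighbour, were named after their values were seen. Alternatives were moderation, scaling, the choice of features and genes, and leaving out each array. Proteins were not used here.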

Additional observations from a re-analysis of the deposited data

Results flagged for a closer look

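Several effects had opposite signs under the same contrast in different arrays. Each sign is that of 1 array against 1 array, and the difference between the effects was not tested. MT1F was higher with X-rays by 0.41 at 37 °C and had a difference of -0.13 at 41.5 °C and 0.33 at 44 °C. Its 41.5 °C heat difference was 0.49 without X-rays and -0.05 with them. The SD of a difference between 2 arrays of MT1F is 0.196, which both negative values fall within.

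MT2A had the same layout: 0.67 with X-rays at 37 °C, -0.17 at 41.5 °C and 0.51 at 44 °C, and a 41.5 °C heat difference of 0.54 without and -0.30 with X-rays, where the SD of a difference is 0.243. These values share arrays, so they are not separate observations. The 41.5 °C heat difference of MT1B was -0.27 without X-rays and 0.16 with them, both within its SD of 0.28.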

How the results depend on the processing

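Calls of members were lost under 2 settings, and the cause was not tested. MT1X at 41.5 °C against 37 °C and MT1F at 44 °C against 41.5 °C, 1 member each, became 0 members with moderation that ignored the intensity trend and in a fit of all features, and ranged from 0 to 1 when 1 array was left out. At 44 °C against 37 °C and for radiation the count was 0 members throughout. Leaving out 1 array took the number of all genes called from 263 to 1212 at 44 °C against 37 °C, from 19 to 800 at 41.5 °C, from 1024 to 1299 at 44 °C against 41.5 °C and from 0 to 85 for radiation. Without the trend the counts at the 3 temperature comparisons were 405, 9 and 791, and over all features 1916 and 33 for the first 2. For radiation, median centring, averaging features and leaving out dim genes each gave 1 gene. A further quantile normalization called 486 genes upward and 599 downward at 44 °C against 37 °C and 273 and 229 at 41.5 °C, and median centring 467 and 538 at 44 °C against 37 °C and 580 and 1432 against 41.5 °C. Of genes past 2-fold there were 40, 73 and 18 for radiation at 37 °C, 41.5 °C and 44 °C, 67 and 260 for 41.5 °C and 44 °C without X-rays, and 106 and 249 with X-rays.

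Signs that turned when 1 array was left out were all of values that had not passed: MT1B from -0.32 to 0.21 and MT1F from -0.032 to 0.47 at 41.5 °C against 37 °C, MT1E from -0.099 to 0.052 at 44 °C against 41.5 °C, and MT2A from -0.11 to 0.39, from -0.26 to 0.49 and from -0.36 to 0.40 in the 3 temperature comparisons (44 °C and 41.5 °C against 37 °C, then 44 °C against 41.5 °C). MT2A had -0.034 in the last with median centring. No paired analysis was possible because each group holds 1 array, so that replicate numbers pair none; the radiation term itself compares arrays of equal temperature.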
